A study of Gallus gallus with 4 samples.

Results

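Mitochondria carry their own ribosomes, which make the few respiratory chain subunits encoded by mitochondrial DNA. All proteins of these mitoribosomes, and the enzymes that charge the mitochondrial tRNAs, are encoded in the nucleus, made in the cytosol and brought in through translocases of the outer membrane (TOM) and inner membrane (TIM). Liver is rich in mitochondria, and hepatocytes use them for fatty acid oxidation, ammonia disposal and the supply of precursors for glucose synthesis. The genes described here are those of large subunit proteins (symbols starting MRPL), small subunit proteins (MRPS), inner membrane translocases (TIMM), outer membrane translocases (TOMM) and mitochondrial aminoacyl-tRNA synthetases (ending in ARS2).

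Members were chosen by gene symbol. Of 107 genes in a chicken gene table with such symbols, 45 could be named on the array through their RefSeq accessions, and the other 62 were not analysed here. All 45 passed the filter on dim probes, among 4872 named genes that did, and every one was well above background on all 4 arrays. They comprise 18 MRPL genes, 18 MRPS genes, 3 TIMM genes, 1 TOMM gene and 5 ARS2 genes.

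Liver RNA of coloured broiler chickens killed at 35 days was hybridised to 4 one-colour Agilent arrays on 1 slide. Group 1 is labelled high and group 2 low, and the labels use these words for both feed efficiency and residual feed intake. Residual feed intake is feed eaten beyond the amount predicted from growth and size, so the shared word does not settle which birds used feed better. Per the design text, 4 to 5 birds were killed per group, their RNA was pooled, each pool was split in duplicate, and the low samples served as control. All birds were caged singly with free access to feed and water, starter feed until week 4 and finisher feed after it. Both group 1 arrays and group 2 replicate 1 are labelled as female, and group 2 replicate 2 as 1 male and 1 female. If each pool was split in duplicate, the tests measure technical spread between arrays and no variation between birds. The labels of the group 2 arrays differ, as does their sex-linked signal given below. What separates those arrays is thus not known, and their spread may hold more than technical differences.

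On the array labelled group 2 replicate 1, 416 probes of Z-linked genes had a median 0.50 log2 units above the mean of the other arrays, and 34 probes of W-linked genes one of -0.91. The other 3 arrays lay between -0.19 and -0.16 for Z-linked probes and between 0.32 and 0.51 for W-linked probes. Hens have a single Z and a W chromosome and cocks a pair of Z chromosomes, so these values go against the female label of that array. Group 2 replicate 2, labelled as 1 male and 1 female, had values of -0.16 (Z) and 0.51 (W), like those of the group 1 arrays, so they go against its label too. The group 2 arrays thus differed in sex-linked signal, which duplicates of 1 pool would share. Arrays of group 1 correlated at r = 0.989 across probes and those of group 2 at 0.966, against 0.931 to 0.946 between groups. The share of probes well above background was 78.1% and 80.2% in group 1, against 74.9% and 72.3% in group 2.

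Of 13 hepatocyte markers 0 were called different between the groups by limma, with a median log2 difference of 0.09 and 1 of 13 at an unadjusted p under 0.05, the plasma protein gene VTN (-1.41, adjusted p = 0.0884). Among all named genes 5.75% were called higher in group 1 and 3.92% lower. For other cell types, 9 of 15 enterocyte markers, 3 of 8 erythroid markers, 5 of 11 endothelial and stellate markers and 2 of 11 lymphocyte markers were called higher in group 1, and 0 were called lower. Their summed levels, in multiples of the 75th percentile, spanned 323 to 390 in group 1 against 41.9 to 146 in group 2 for erythroid markers. The sums spanned 28.0 to 31.4 against 8.14 to 9.88 for endothelial and stellate markers, and 201 to 223 against 80.3 to 102 for lymphocyte markers. For enterocyte markers they spanned 374 to 466 in group 1 and 362 to 371 in group 2, and such a sum is set mostly by the brightest genes. The median log2 difference was 2.66 for enterocyte markers, with 14 of 15 above 0, and 2.46 for erythroid markers. It was 1.05 for endothelial and stellate markers and 1.05 for lymphocyte markers, against 0.14 for all named genes. Of these markers RBP2, FABP2, CDX2, CDH17 and CLDN10 were not well above background on either group 2 array, nor were FLT1 of the endothelial list or CCR7 and CD4 of the lymphocyte list. Such genes passed the filter on dim probes through group 1 alone, so they could not be called lower. The part of these cells in the results below was not tested, and in bulk tissue fewer cells of a type and less RNA per cell cannot be told apart.

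Levels are given as log2 of the processed spot intensity minus the 75th percentile of the array, and differences as group 1 minus group 2. A gene was called changed at a limma p below 0.05 after Benjamini-Hochberg adjustment over 33865 probes. By this rule MRPS14 was lower in group 1, and it was the only called member of the 45. That is 2.22% of the members, against a background of 9.67% among all named genes (5.75% higher and 3.92% lower). With no adjustment, 5 members lay higher and 3 lower at p under 0.05, 17.8% of the 45, against 31.6% of all named genes. The median log2 difference of the members was 0.09, or 0.05 below the median of all named genes (0.14). Above 0 lay 26 of the 45 members and 2849 of the 4872 named genes, which is the background for the counts above 0 given below.

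**Figure D1:**
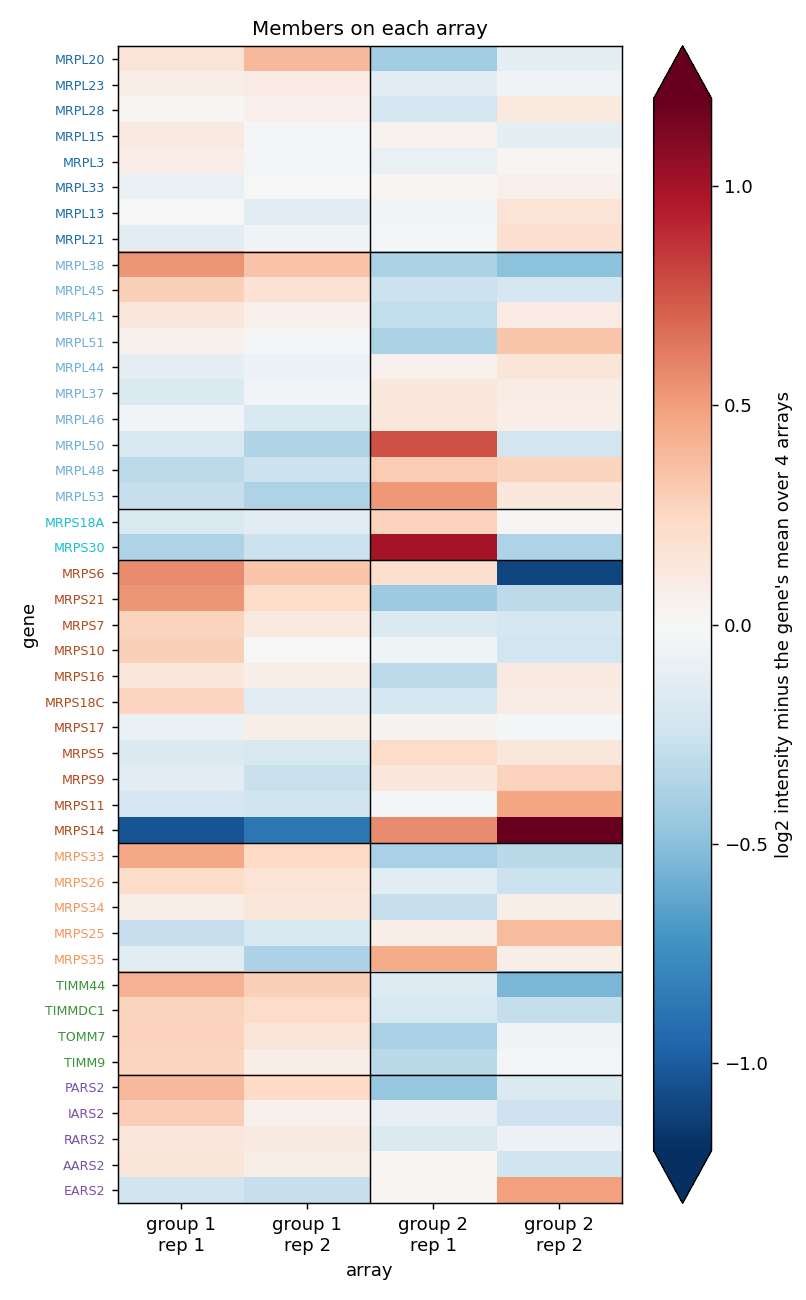
Colour shows log2 intensity of each gene (rows) minus its own mean over the 4 arrays (columns), with rows in 7 classes separated by lines in the order of the report. MRPS14 is dark blue in group 1 and red in group 2, and the Z-linked genes MRPL50 and MRPS30 are red on group 2 replicate 1 alone.

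Differences of the members were small. In 31 of 45 members the log2 difference was within 0.5 of 0, 68.9% of them, against 54.3% of all named genes. A single member, MRPS14, differed by more than 1 log2 unit, which is 2.22% against 18.1% of all named genes. Of the named genes well above background on all 4 arrays 16.1% did. The 95% interval of the difference lay within 2-fold in either direction for 28 members, or 62.2%, against 39.1% of all named genes and 41.0% of the named genes that were well above background on all 4 arrays. For the other 17 members the interval reached beyond 2-fold. These intervals come from the spread between arrays of pooled RNA, not between single birds, and what separates the group 2 arrays is not known. The SD of the differences was 0.52 over the members, 0.89 over all named genes and 0.78 over those well above background on all 4 arrays.

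Arrays of the same group were closer for the members than for genes at large. The SD of replicate 1 minus replicate 2 was 0.14 in group 1 and 0.43 in group 2 over the members, and 0.34 and 0.63 over all named genes. Over the named genes well above background on all 4 arrays, as all members are, it was 0.30 and 0.60. No gene set of matched intensity was compared, here or for the differences above, so the part of spot brightness was not tested. In 16 of 45 members the gap between the group 2 arrays was wider than the difference between the groups, 35.6% against 39.6% of all named genes. All arrays of one group lay above all of the other in 34 members, 19 higher and 15 lower in group 1. That is 75.6%, near the background of 68.1% (40.3% higher and 27.8% lower), so it is no result about the members.

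**Figure D2:**
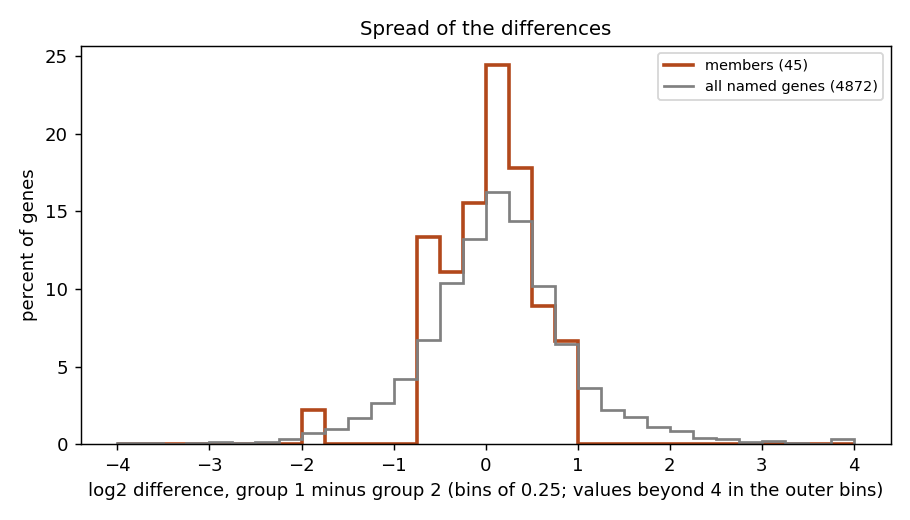
Share of genes (percent) in bins of the log2 difference, group 1 minus group 2, for the 45 members and for all 4872 named genes. The members lie between -0.65 and 0.90, apart from MRPS14 at -1.90.

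MRPS14 is the counterpart of bacterial protein S14 and sits in the head of the small subunit. Its level was -0.37 and -0.20 on the group 1 arrays, against 1.23 and 2.00 on those of group 2. The groups did not overlap, and the higher group 2 value came from replicate 2. The mean was -0.29 ± 0.12 in group 1 and 1.61 ± 0.55 in group 2 (SD, n = 2 arrays each), a log2 difference of -1.90 ± 0.32 (SE), which is 3.74-fold lower in group 1 (limma, adjusted p = 0.0387). A single probe represents the gene. The call was lost when either group 1 array was left out (adjusted p = 0.307 without replicate 1 and 0.222 without replicate 2), where 0 of all named genes passed. It was also lost without the filter on dim probes (0.0601). The difference was -1.51 without group 2 replicate 2 and -2.29 without group 2 replicate 1.

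Among large subunit proteins with a bacterial counterpart, 0 of 8 were called and 5 lay above 0, with a median log2 difference of 0.07. MRPL3, a core protein near the site of peptide bond formation, had levels of 2.56 and 2.45 in group 1, against 2.39 and 2.50 in group 2. Its difference of 0.06 had an interval of -0.47 to 0.58, and the groups overlapped. MRPL15 (0.08) and MRPL28 (0.09) also overlapped between the groups, as did MRPL13 (-0.12). On a dimmer MRPL13 probe the groups did not overlap, and the difference was -0.67 ± 0.20 (limma, adjusted p = 0.0939).

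MRPL23, a protein at the exit of the peptide tunnel, differed by 0.18, MRPL21 by -0.18 and MRPL33 by -0.08. The widest difference of this class was that of MRPL20, with 3.24 and 3.47 in group 1, against 2.67 and 2.97 in group 2. The groups did not overlap, but the difference of 0.54 ± 0.23 did not pass (adjusted p = 0.176). A further, dimmer MRPL20 probe differed by -0.11. Over these 8 proteins the interval lay within 2-fold for 7, all but MRPL20.

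Large subunit proteins found only in mitochondrial ribosomes spread more widely. Of 10 genes 0 were called, 3 had an unadjusted p under 0.05, and the median log2 difference was -0.20. MRPL38, a protein of the central protuberance on top of the large subunit, had levels of 3.94 and 3.76 in group 1, against 3.03 and 2.92 in group 2. Both group 1 arrays lay well apart from both group 2 arrays, and the difference of 0.87 ± 0.20 missed the threshold (limma, adjusted p = 0.062).

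MRPL38 passed with every array kept after another background correction (limma, adjusted p = 0.0317 with quantile and 0.0333 with percentile scaling). A further MRPL38 probe differed by 0.66 (adjusted p = 0.108) and another, dim one by -0.49. Other proteins of the central protuberance lay on the opposite side. MRPL48 had levels of 2.83 and 2.89 in group 1, against 3.45 and 3.40 in group 2, with a difference of -0.57 ± 0.19 (adjusted p = 0.118). MRPL46, its neighbour in the protuberance, differed by -0.22. Replicates were tight for MRPL48, and its groups did not overlap.

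MRPL53 had levels of -0.21 and -0.30 in group 1, against 0.59 and 0.20 in group 2. The difference of -0.65 ± 0.23 did not pass (adjusted p = 0.129), and it was -0.84 without group 2 replicate 2. MRPL45, which holds the ribosome at the inner membrane, had levels of 4.34 and 4.22 in group 1, against 3.79 and 3.85 in group 2. Its difference of 0.46 did not pass (adjusted p = 0.174). A dimmer MRPL45 probe ran the other way with -1.19 ± 0.35 (adjusted p = 0.0890), so the sign for this gene depends on the probe.

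MRPL44, whose fold resembles a double-strand RNA nuclease, differed by -0.19, MRPL37 by -0.21, MRPL41 by 0.20 and MRPL51 by 0.04. MRPL51 had levels of 4.00 and 3.92 in group 1, against 3.56 and 4.28 in group 2. Both group 1 values thus lay between those of group 2.

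MRPS18A and MRPS30 carry small subunit symbols, but structures of mammalian mitoribosomes place both in the large subunit. MRPS18A differed by -0.29, with an interval of -0.85 to 0.27. MRPS30 is encoded on chromosome Z and had levels of 0.52 and 0.63 in group 1, against 1.88 and 0.52 in group 2. MRPL50, the other Z-linked member, had levels of 1.82 and 1.63 in group 1, against 2.76 and 1.77 in group 2. For both genes group 2 replicate 1 was high and group 2 replicate 2 lay among or next to the group 1 values.

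Group 2 replicate 1 stood 1.33 log2 units above the mean of the other arrays for MRPS30 and 1.02 for MRPL50, the array with the raised Z-linked median. The group differences of -0.63 ± 0.49 for MRPS30 and -0.54 ± 0.38 for MRPL50 did not pass (adjusted p = 0.405 and 0.36). Without group 2 replicate 1 they were 0.06 and -0.05. Without group 2 replicate 2 they were -1.31 and -1.04. With a single array left in group 2, a test holds no spread of that group, so only the sizes are given. Over 196 Z-linked named genes the median difference was -0.25, and 0.01 without group 2 replicate 1.

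**Figure D3:**
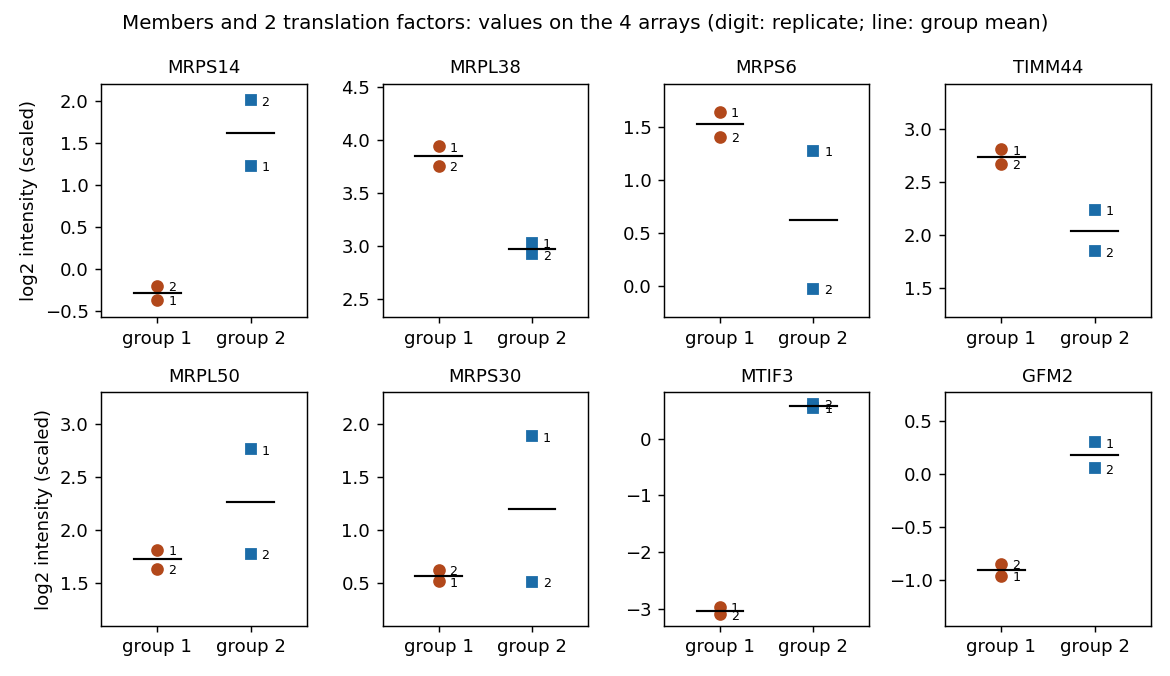
Scaled log2 intensity on each array for 6 members and for MTIF3 and GFM2, with group 1 left (circles) and group 2 right (squares), digits for replicates and lines for group means. Group 2 replicate 1 stands alone for MRPL50 and MRPS30, group 2 replicate 2 for MRPS6, and the groups are well apart for MRPS14, MTIF3 and GFM2.

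Of 11 small subunit proteins with a bacterial counterpart, MRPS14 was the 1 called, 6 lay above 0 and the median log2 difference was 0.13. MRPS21, the counterpart of bacterial S21, had levels of 5.88 and 5.57 in group 1, against 4.91 and 5.03 in group 2. The groups did not overlap, and the difference of 0.75 ± 0.22 did not pass (adjusted p = 0.0908).

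MRPS6 had the largest positive difference of all members, 0.90 ± 0.48, with levels of 1.64 and 1.41 in group 1, against 1.28 and -0.03 in group 2. It rested on group 2 replicate 2: the difference was 1.55 without group 2 replicate 1 and 0.25 without group 2 replicate 2.

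MRPS7, the counterpart of the protein that starts assembly of the bacterial subunit head, differed by 0.39, MRPS10 by 0.28, MRPS16 by 0.20 and MRPS18C by 0.13. The other 2 probes of MRPS7 differed by -0.30 and -0.27. MRPS5, whose bacterial counterpart lines the mRNA entry, differed by -0.35, MRPS9 by -0.40 and MRPS11 by -0.44, and the groups did not overlap for these 3. On its dimmer probe MRPS9 differed by -0.98 ± 0.23 (limma, adjusted p = 0.0601). MRPS17 stood nearest to 0 of all members, with 3.68 and 3.83 in group 1, against 3.79 and 3.75 in group 2. Its interval ran from -0.54 to 0.51.

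The 5 small subunit proteins found only in mitochondrial ribosomes gave 0 calls and a median of 0.20. MRPS33 had levels of 4.20 and 3.98 in group 1, against 3.35 and 3.42 in group 2, a difference of 0.71 ± 0.21 (adjusted p = 0.0905). It was called after background correction by normexp with quantile normalization (0.71, adjusted p = 0.0468). MRPS26 (0.38) and MRPS34 (0.20) also lay above 0, and all 4 MRPS26 probes did. MRPS35 had levels of 1.41 and 1.15 in group 1, against 1.98 and 1.61 in group 2, and MRPS25 differed by -0.46. Neither passed (adjusted p = 0.205 and 0.21).

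**Figure D4:**
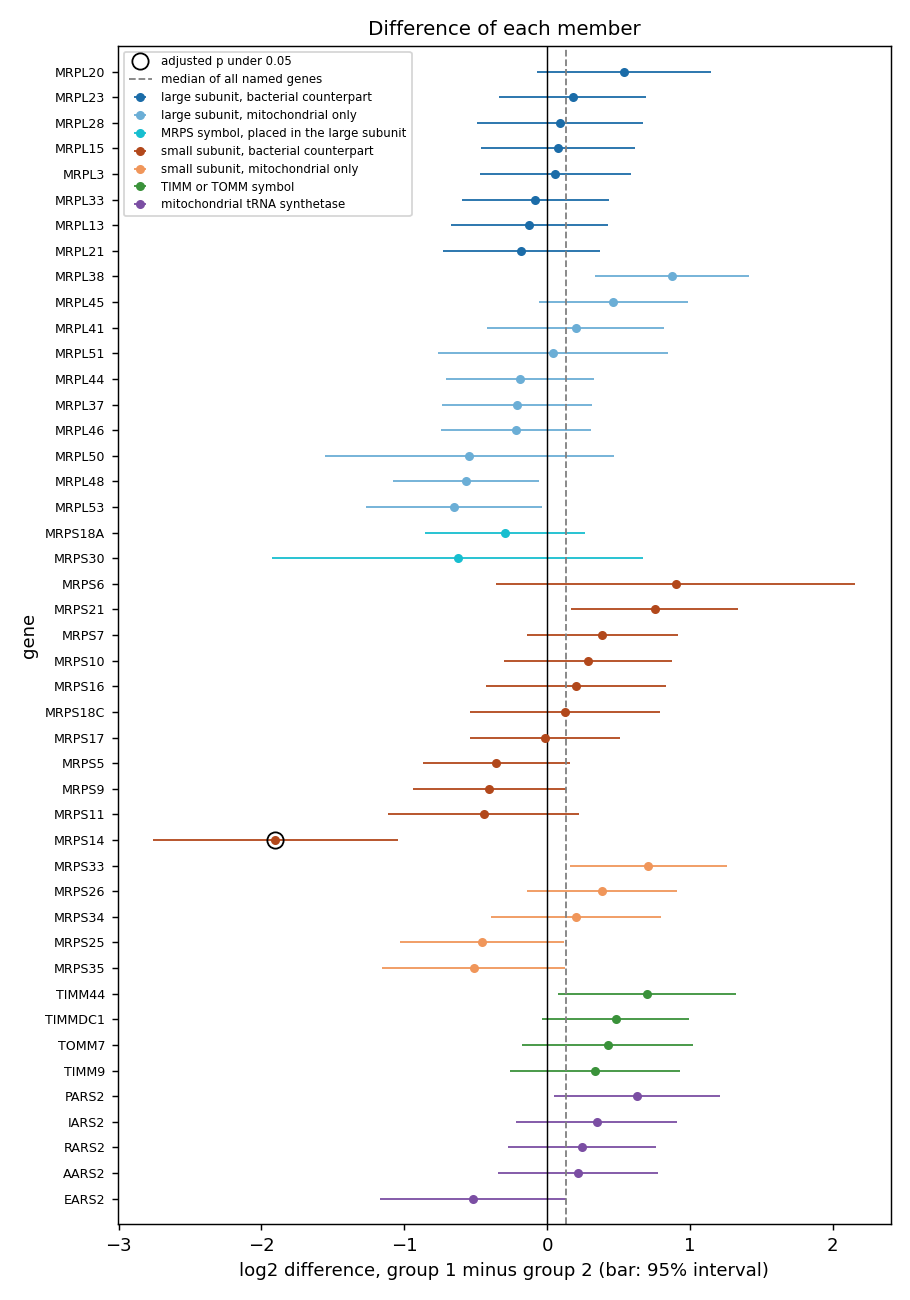
Points show the log2 difference of each member, group 1 minus group 2, and bars its 95% interval from limma, coloured by class. MRPS14 is the circled gene (adjusted p = 0.0387), and all 4 genes with TIMM or TOMM symbols lie to the right of 0, with TIMM44 at 0.70.

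Of the 4 genes with TIMM or TOMM symbols 0 passed the test, 1 had an unadjusted p under 0.05 and all had a difference above 0. Of these TIMM44, TIMM9 and TOMM7 act in import. TIMM44, which tethers the Hsp70 import motor to the TIM23 channel, had levels of 2.81 and 2.67 in group 1, against 2.23 and 1.84 in group 2. The difference was 0.70 ± 0.24 (adjusted p = 0.115), and 0.89 without group 2 replicate 1. A second TIMM44 probe showed the reverse. It was not well above background on either group 1 array. It thus passed the filter through group 2 alone, which fixed its direction. The probe was at least 4.28-fold lower in group 1 (limma on the measured values, adjusted p = 0.0251). The probes of this gene thus differ in sign, but the dim one is no independent check.

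TOMM7, a small subunit of the TOM complex, had levels of 4.78 and 4.66 in group 1, against 4.12 and 4.47 in group 2, a difference of 0.43 ± 0.23 (adjusted p = 0.248). TIMM9, a chaperone that ferries carrier proteins across the intermembrane space, differed by 0.34, and a dimmer probe by -0.25. TIMMDC1 matches the symbol rule, but its product is known as an assembly factor of respiratory complex I. Its levels were 3.89 and 3.84 in group 1, against 3.43 and 3.34 in group 2, and its difference was 0.48 ± 0.20 (adjusted p = 0.161). The dimmer TIMMDC1 probes differed by 0.23, 0.56 and -0.52, so they differ in sign. The median difference over the 4 genes with TIMM or TOMM symbols was 0.45. It was 0.24 with median scaling of the arrays and 0.12 with the mean of all probes per gene.

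Of 5 mitochondrial aminoacyl-tRNA synthetases 0 were called, 4 lay above 0 and the median was 0.25, or 0.03 with arrays scaled on their medians. PARS2, which charges the proline tRNA, had levels of 2.37 and 2.22 in group 1, against 1.52 and 1.81 in group 2. The difference of 0.63 ± 0.22 did not pass (adjusted p = 0.122), and its groups did not overlap. IARS2 for isoleucine differed by 0.35, RARS2 for arginine by 0.25 and AARS2 for alanine by 0.22, with a second AARS2 probe at -0.32.

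EARS2, which charges the glutamate tRNA, ran the other way with 0.65 and 0.61 in group 1, against 0.91 and 1.38 in group 2. Its brighter probe differed by -0.52 ± 0.25 (adjusted p = 0.21). The dimmer probe of EARS2 had levels of -3.62 and -3.36 in group 1, against -2.43 and -2.22 in group 2, and was called lower (-1.16 ± 0.22, adjusted p = 0.0452). Both probes thus had the same sign, and the rule of the brightest probe leaves the gene uncalled.

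Genes with TIMM, TOMM or ARS2 symbols together had a median of 0.35 over 9 genes with 8 above 0, or 0.19 with 6 above 0 when all probes of a gene were averaged, and the 36 mitoribosome genes had one of 0.01 with 18 above 0. This difference was not tested. Of all 4872 named genes, 2849 lay above 0. Mitoribosome proteins with a bacterial counterpart (19 genes) had a median of 0.08, and those found only in mitochondria (15 genes) one of -0.19. The value for the mitochondria-only proteins was -0.08 without Z and W probes, with 7 of 14 above 0, and that for the proteins with a counterpart was -0.01 without group 2 replicate 1. With arrays scaled on their medians the 4 medians were 0.13, -0.20, -0.14 and -0.41, and that of all named genes was -0.08. On that scaling 2179 of the 4872 named genes lay above 0.

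The array holds further probes for 32 of the 45 members, 43 in all. For 22 members every probe had one sign, and for AARS2, MRPL20, MRPL33, MRPL38, MRPL45, MRPS7, MRPS17, TIMM9, TIMM44 and TIMMDC1 the signs differed. In 31 of 43 cases the further probe lay within 0.5 log2 units of the brightest, and in 29 it lay below it. Of the 43, those of EARS2 and TIMM44 were called, both lower in group 1, the TIMM44 probe having passed the filter through group 2 alone.

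Of 5 mitochondrial translation factors measured, 2 were called lower and 0 higher, 40% of a short list. Of all named genes 9.67% were called, 3.92% of them all lower. The list was chosen with earlier results of these data known, so its share is no evidence of an excess. The list's median was -0.04. MTIF3, the initiation factor that keeps the ribosomal subunits apart before start, had levels of -2.95 and -3.09 in group 1, against 0.54 and 0.61 in group 2. The groups were far apart, and the difference was -3.59 ± 0.20 on its single probe (limma, adjusted p = 0.0153).

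GFM2, which helps to split the ribosome after a round of translation, had levels of -0.96 and -0.85 in group 1, against 0.30 and 0.05 in group 2. The difference was -1.08 ± 0.21 (adjusted p = 0.0471), and -1.16 on its other probe (adjusted p = 0.0410). GFM2 is Z-linked, and without group 2 replicate 1 it differed by -0.96. GFM2 lost its call with the replicate number as a block (adjusted p = 0.0816), without the filter on dim probes (0.0763) and without either group 1 array (0.369 and 0.259). MTIF2, which brings the initiator tRNA, differed by -0.03, the ribosome rescue gene C12orf65 by 0.30 and HEMK1, a methyltransferase of release factors, by -0.04.

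**Figure D5:**
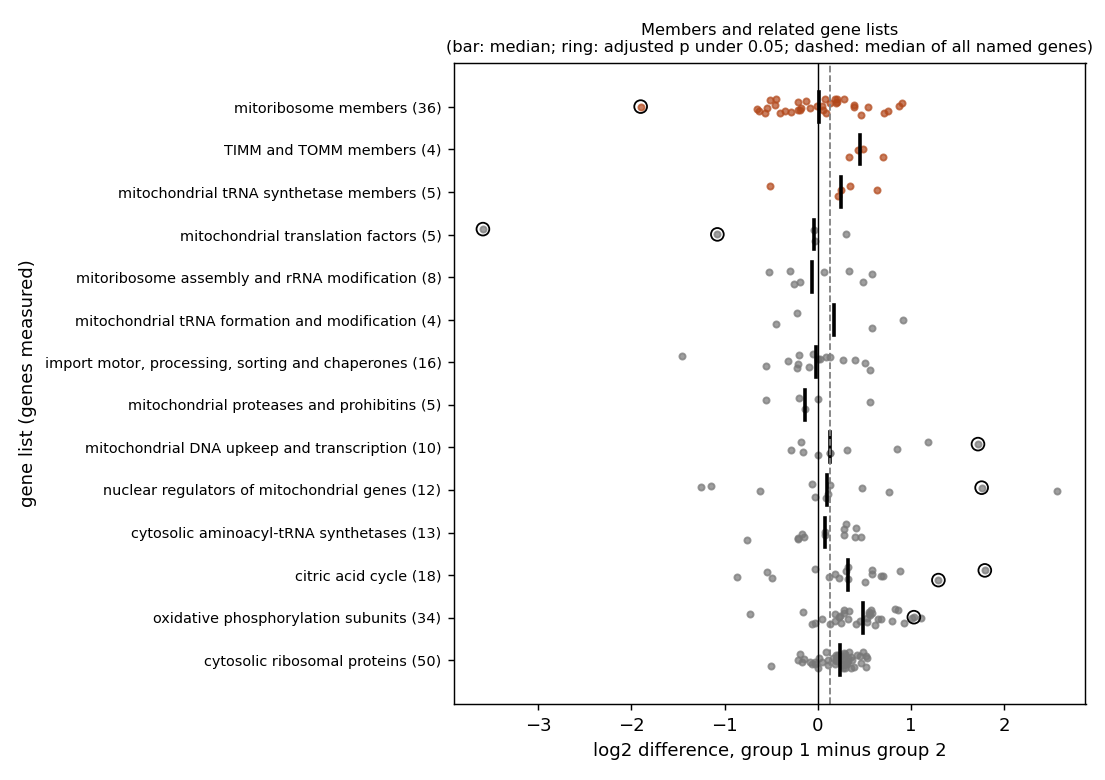
Each point is a gene placed by its log2 difference, group 1 minus group 2, with members in orange and other lists in grey, bars for medians and rings for called genes. The mitoribosome median (0.01) lies left of the dashed line for all named genes (0.14), and oxidative phosphorylation subunits lie right of it (0.49).

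Factors that build the mitoribosome gave 0 calls of 8 and a median of -0.06. The helicase DHX30 came nearest (0.59, adjusted p = 0.117), and ERAL1, a chaperone of the small subunit rRNA, differed by 0.07. AURKAIP1, a small subunit protein with another symbol, differed by 0.36 (adjusted p = 0.271). Of 4 genes for tRNA formation and modification 0 were called, with NSUN2 nearest (0.91, adjusted p = 0.0985).

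The import motor, processing and chaperone list gave 0 calls of 16 and a median of -0.03. HSPA9, the Hsp70 of the import motor, differed by -0.09, its exchange factor GRPEL1 by -0.55, the presequence peptidase subunits PMPCA and PMPCB by -0.21 and -0.32, and the folding chaperones HSPD1 and HSPE1 by 0.27 and 0.09. MTX3, a Z-linked gene of outer membrane sorting, came nearest with -1.46 (adjusted p = 0.0639). After normexp MTX3 passed with percentile scaling (-1.31, limma, adjusted p = 0.0413) but not with quantile normalization (-1.35, 0.0501). Its difference was -1.05 without group 2 replicate 1 and -1.87 without group 2 replicate 2. Of its dimmer probes 1 was called lower (-2.63, adjusted p = 0.0292) and another was not (-0.23, adjusted p = 0.749). Of 5 proteases and prohibitins 0 were called, PHB2 coming nearest (0.56, adjusted p = 0.162).

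In mitochondrial DNA upkeep and transcription 1 of 10 genes was called, higher in group 1. That is 10%, near the background of 9.67% of all named genes, so it is no result about the list. SUPV3L1, a helicase of mitochondrial RNA decay, had levels of 0.26 and 0.24 in group 1, against -1.61 and -1.32 in group 2, a difference of 1.72 ± 0.21 (adjusted p = 0.0270). TFAM, which packs mitochondrial DNA, differed by 0.13 with overlapping groups.

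Among 12 nuclear regulators MYC alone was called, higher in group 1 (1.76 ± 0.24, limma, adjusted p = 0.0301). That is 8.33% of the list, near the background of 9.67% of all named genes. GABPA and NRF1, known activators of mitoribosome and import genes in mammals, differed by -0.62 (adjusted p = 0.102) and 0.77 (0.136). The coactivator PPARGC1A differed by -1.15 (adjusted p = 0.21), with 3 of 4 arrays well above background. PRKAA2, not well above background on either group 2 array, was at least 2.29-fold higher (limma on the measured values, adjusted p = 0.0554). Z-linked PRKAA1 differed by -1.25 (adjusted p = 0.0570) and passed with median scaling (adjusted p = 0.0483). PRKAA1 also passed after normexp, with quantile normalization (limma, adjusted p = 0.0421) and with percentile scaling (0.0444). With all probes of the gene averaged it differed by -0.95 (limma, adjusted p = 0.124). A dimmer PRKAA1 probe differed by -0.66 (adjusted p = 0.301).

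Cytosolic aminoacyl-tRNA synthetases gave 0 calls of 13 and a median of 0.08, the methionine enzyme MARS coming nearest (-0.76, adjusted p = 0.0890). The sign of this median turned without group 2 replicate 2 (-0.22) and with all probes of a gene averaged (-0.10). The list of oxidative phosphorylation subunits, which also holds the electron carrier cytochrome c (CYCS), had a median of 0.49 over 34 genes. In it 30 lay above 0 and 1 was called higher, CYCS (1.03, limma, adjusted p = 0.0461). That is 2.94% of the list, against 9.67% of all named genes called. SDHA, SDHB and SDHD stand both in this list and in that of the citric acid cycle. Cytosolic ribosomal proteins had a median of 0.24 over 50 genes, with 40 above 0 and 0 called, RPS6 coming nearest (-0.50, adjusted p = 0.151). That median was 0.07 without group 1 replicate 1 or group 2 replicate 1, 0.41 without group 1 replicate 2 and 0.39 without group 2 replicate 2. The citric acid cycle list also holds the cytosolic enzymes ACO1 and MDH1 and the pyruvate dehydrogenase genes PDHB and PDHX. Its median was 0.32 over 18 genes, 14 above 0. It was 0.53 without group 2 replicate 2 and 0.15 with all probes of a gene averaged. SUCLA2 (1.79) and OGDHL (at least 1.69-fold higher under the main processing, limma on the measured values, adjusted p = 0.0364) were called. That is 11.1% of the list, near the background of 9.67% of all named genes. OGDHL was not well above background on either group 2 array, so it passed the filter through group 1 alone.

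Without the filter on dim probes MYC, SUCLA2, OGDHL and CYCS lost their calls (adjusted p = 0.0512, 0.0507, 0.0612 and 0.0759), and without either group 1 array every call named here was lost. CYCS also lost its call with the replicate block (adjusted p = 0.0826) and with median scaling (0.0645). OGDHL lost it with the block (0.0608), with quantile normalization (0.0742) and after normexp, where it differed by 0.22 with quantile normalization (0.338) and 0.35 with percentile scaling (0.279). With arrays scaled on their medians the list medians were -0.14 for cytosolic synthetases, 0.27 for oxidative phosphorylation, 0.02 for cytosolic ribosomal proteins and 0.11 for the citric acid cycle. No test set these lists against the members.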

How the data were processed

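Liver RNA of 2 groups of pooled birds was measured on 4 one-colour arrays, 2 per group. Per the file headers, each spot's processed intensity was written by Agilent's Feature Extraction software (version 11.5.1.1) after background subtraction, along with flags for dim, saturated and outlier spots. The authors' deposited table holds log2 values: set against the scanner files, its columns matched log2 intensity minus the 75th percentile, centred on the probe's median (r = 1.00 on each array), with medians 0.084, 0.016, -0.094 and -0.022. Its scale, centring and direction were thus settled.

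From 43803 spots, outliers (25, 12, 8 and 13 per array) were dropped and repeated probes averaged. No spot was saturated. A probe was kept if well above background on both arrays of 1 group (33868 probes, 33865 testable). Names came from RefSeq accessions matched to a gene table of GRCg7b (11935 of 43603 probes, 27.4%). The array was drawn on another build, so no coordinates are given, and no sequences are printed. The brightest kept probe stood for a gene. limma 3.58.1 in R 4.3.3 (2 residual and 2.60 prior degrees of freedom) was fitted on all kept probes, with or without a gene name. It was also run on simulated data, and that outcome is not given here. An exact permutation test of 2 against 2 arrays cannot give a p below 0.333. The number of arrays limits the precision.

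Where a probe was dim throughout a group, its fold is a lower bound under the main processing. The dim side was set on each array to the lowest well-above-background signal, or to the probe's own where greater. Members and lists were chosen with earlier results of these data known, and all 45 members are described. Of the other lists the called genes or the nearest to the threshold are named, plus genes picked for their role after values were seen. The correlation of same-numbered arrays' deviations was 0.03, and nothing in the labels pairs them. Group and place on the slide cannot be told apart. Alternatives were other background corrections, scalings, filters, probe choices, the authors' table, a replicate block, no Z or W probes and each array left out. The planned normexp on mean signals was run on median signals, an addition chosen after seeing the data. The mitochondrially encoded genes were listed, and 0 of 13 could be named on the array.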

Additional observations from a re-analysis of the deposited data

How the results depend on the processing

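MRPS14 was lower in group 1 in every alternative, with differences from -2.29 to -1.51. It passed in all alternatives except without the filter on dim probes (adjusted p = 0.0601) and without either group 1 array. The count of lower members was 0 without the filter (limma, 5 members at an unadjusted p under 0.05), and 0 to 4 with 1 array left out. It was 0 without either group 1 array (1 member at that level each), and 4 without group 2 replicate 2, namely MRPS14, MRPL50, MRPL53 and MRPS30. The count of higher members, 0, became 3 after normexp with quantile normalization (MRPL38, MRPS21, MRPS33), 1 after normexp with 75th percentile scaling (MRPL38), and 0 to 3 with 1 array left out, 3 of them without group 2 replicate 1 (MRPL38, MRPS6, TIMM44). All named genes called numbered 471, and 156 without the filter, 735 and 706 with the normexp settings, 298 with the replicate block, 0 without either group 1 array, and 1036 and 1141 without group 2 replicate 1 or 2.

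The members' median of 0.09 became -0.12 with median scaling, where the median of all genes was -0.08, 0.0298 with the mean of all probes of a gene, and 0.0014 to 0.19 with 1 array left out. In the other settings it moved by less than the spread between arrays. With the replicate block 1 member was lower, MRPS14 (adjusted p = 0.0399), 0 were higher, 3 had an unadjusted p under 0.05 and the median was 0.09. Settings with an array left out test fewer samples, and the one without the filter tests more probes. Leaving out an array leaves a single array in its group, so the test's spread comes from the other group alone. Calls and counts from those settings thus hold no error of the reduced group. Beyond that the cause was not tested. Of the 45 members 29 kept the sign of their difference in every setting run for them and 16 did not.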

Other observations

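The named genes whose values on the 4 arrays lay closest to the members' median profile were PSMD5, TRIB2, DROSHA, ERAL1 and NUBP1, among genes well above background on all arrays. Members and genes with symbols starting LOC were left out. Likeness was the sum over the 4 arrays of squared differences between centred log2 values, which was 0.0010 for PSMD5 and 0.0015 for NUBP1. PSMD5, an assembly chaperone of the proteasome, had levels of 2.42 and 2.35 in group 1, against 2.30 and 2.34 in group 2. DROSHA, the nuclease that releases microRNA precursors, had levels of -0.33 and -0.39 in group 1, against -0.45 and -0.42 in group 2. NUBP1, of iron-sulfur cluster assembly, had levels of 2.51 and 2.45 in group 1, against 2.36 and 2.46 in group 2. The members' own median profile was nearly flat, at 0.08 and -0.0018 in group 1, against -0.05 and 0.01 in group 2. Single members did differ, 26 above 0 and 19 below, with a median absolute difference of 0.35. The 5 genes closest to the flat profile varied little, with differences of 0.05 to 0.07, which follows from how they were chosen.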
